A study of Rattus norvegicus with 4 samples.

Results

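The genes described here are 9 complement genes: the chains of C1q (C1qa, C1qb, C1qc), the components C2 and C3, the C3a receptor gene C3ar1, the C1 inhibitor gene Serping1, and Itgam and Itgb2, which encode the chains of complement receptor 3. They are 9 of 34231 gene names on the array, and every gene probe carrying one of these names was taken, which gave 12 of 41012 probes. C1qa, C1qc and Serping1 had 2 probes each and the other 6 genes had 1. The cells were primary cortical neurons from Sprague Dawley rat embryos of both genders at stage E18.5. The shCM1 group received a lentivirus with an shRNA against Cmtr1, a cap ribose methyltransferase, at day 2 in vitro. The shCTL group received a control shRNA lentivirus on the same day. Both were harvested at day 7, and each group held 2 arrays from 2 independent experiments. Sample titles carry an si prefix where the shRNA field has sh. No source used here gives the sequence of either shRNA, so loss of Cmtr1 and other targets of the shRNA cannot be told apart.

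Complement is a cascade of plasma and tissue proteins that tags surfaces for removal. C1q recognises a target, its proteases cut C4 and C2, the product cuts C3, and fragments of C3 are read by receptors on phagocytes. In the developing brain C1q comes mainly from microglia and C3 also from astrocytes, and both take part in the removal of synapses through complement receptor 3. C1 inhibitor, a serpin, blocks the C1 proteases.

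A difference on these arrays is a difference in hybridisation to 60-base probes, and the sequences shown are the C3 probe, the Serping1 probe that did not differ, and probes of the C1q chains C1qa and C1qc. The Serping1 probe that differed is given by its position. In the first C1qc sequence the capitals mark GGN triplets read from its first base. These are glycine codons, and 7 of its 20 codons are of this kind, each 3 codons from the next, as the collagen-like stalk of C1q repeats them. The other probes are in lower case.
C1qc probe A_44_P412290: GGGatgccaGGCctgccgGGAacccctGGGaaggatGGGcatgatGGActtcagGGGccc
C1qc probe A_44_P500708: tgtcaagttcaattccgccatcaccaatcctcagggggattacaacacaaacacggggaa
C1qa probe A_44_P487764: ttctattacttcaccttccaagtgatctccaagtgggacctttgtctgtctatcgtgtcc
C3 probe A_44_P1023538: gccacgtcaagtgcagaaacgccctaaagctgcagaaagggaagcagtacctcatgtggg
Serping1 probe A_44_P422630: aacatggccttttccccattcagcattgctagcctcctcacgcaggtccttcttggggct
In rat build rn4 the files place the C1q probes within 15291 bases of chromosome 5, from chr5:155647536-155647595 for C1qb to chr5:155662767-155662826 for one of C1qa. The C3 probe is on the unplaced sequence at chrUn:64513437-64513496. The Serping1 probe shown covers chr3:67975119-67976458, so its 60 bases span 1340 bases of genome. The other Serping1 probe, A_42_P510386, lies at chr3:67968828-67968887, which is 6232 bases away and, on this minus strand, further towards the 3′ end. Exon and UTR annotation of rn4 was not used here.

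C3 and Serping1 were the complement genes that fell in shCM1, in the fit that takes the slide as a block. For Serping1 this held only at the brighter of its 2 probes, and the other had a log2 difference of 0.09. The C1q chains, C2, the C3a receptor and the beta chain of complement receptor 3 passed no test. Levels are given as a percent of each array's 75th percentile signal, and differences are log2, shCM1 minus shCTL. Unless stated otherwise, an SE in the text is from the fit without a block, also where a blocked p stands beside it. Slide 1 held the first replicate of either group and slide 2 the second. Without a block, limma called 0.0% of 36700 probes at an adjusted p under 0.05, so no complement gene passed, and 1 member probe (C3) had an unadjusted p under 0.05, as did 3.02% of all probes. With the slide as a block, limma called 5.9% of probes (3.2% higher and 2.69% lower). Among the 8 complement genes measured, each taken by its brightest probe, 0 rose and 2 fell. For any single gene, 2 arrays against 2 allow no exact permutation p below 0.33. Of the 11 member probes that were measured, 6 were higher and 2 lower within both slides, against 44.2% and 22.6% of all probes. Their median difference was 0.22, and that of all probes was 0.081. With the brightest probe of each of the 8 genes it was 0.14. After quantile normalization this median was 0.024, and that of all probes was 0.0066. Both shCM1 arrays were above both shCTL arrays for 3 member probes (21.8% of all probes), below for 1 (10.0%) and overlapped for 7 (68.2%).

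The 75th percentile signal was 596 and 744 in shCM1 and 652 and 755 in shCTL, 84.0% to 90.4% of probes were well above background, and no gene spot was saturated. Cmtr1, the targeted gene, was at 9.07% and 8.69% in shCM1, against 37.2% and 27.6% in shCTL. Its difference was -1.85 (SE 0.22, n = 2 arrays per group). Under this scaling dim probes stood higher in shCM1 as a class. The median difference was 0.21 for 15091 probes with a mean signal under 100, 0.069 from 100 to 1000 and -0.05 above 1000, while after quantile normalization these medians lay between 0.0038 and 0.0085. Summed levels of 10 neuronal marker genes were 26595% and 19568% in shCM1 and 28186% and 21461% in shCTL. Stmn2 alone had 16398% and 11910% in shCM1 and 17053% and 12010% in shCTL, while Slc17a7 was at 14.4% to 16.4%. Summed levels of 9 astrocyte markers were 12914% and 12771% in shCM1 and 11790.4% and 12806% in shCTL. Markers of microglia were also above background.

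**Figure D1:**
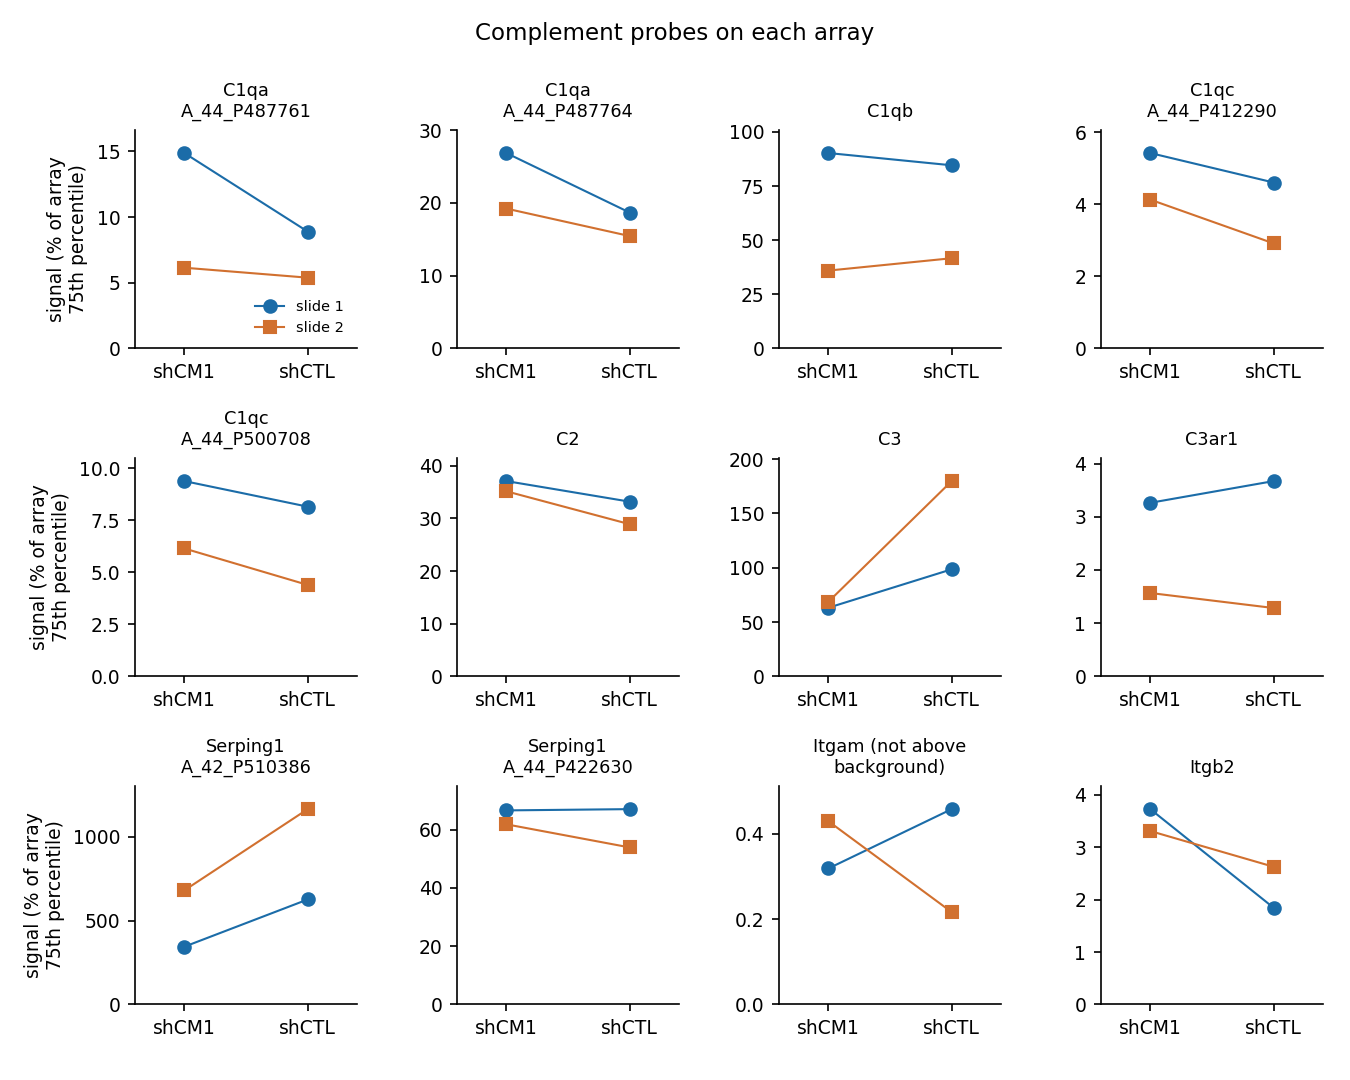
Signal of each complement probe, in percent of the array's 75th percentile on linear axes that start at 0, with 1 point per array, shCM1 left and shCTL right, and a line joining the 2 arrays of a slide. C3 and the Serping1 probe A_42_P510386 slope up towards shCTL in both slides, and C1qb is set apart by slide rather than by group.

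C1q starts the classical pathway. The brighter C1qa probe, A_44_P487764, had 26.8% and 19.2% in shCM1, against 18.7% and 15.4% in shCTL. Both shCM1 arrays were above both shCTL arrays. The difference was 0.42 (SE 0.24, n = 2 arrays per group), with 0.52 and 0.32 within the slides. It did not pass limma with the slide as a block (adjusted p = 0.0744) and was between 0.28 and 0.31 after normexp, cyclic loess or quantile normalization. The dimmer C1qa probe, A_44_P487761, had 14.9% and 6.14% in shCM1 and 8.89% and 5.38% in shCTL. Its groups overlapped, since slide 2 was low in both, and the differences within the slides were 0.74 and 0.19.

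The B chain had no common direction. C1qb had 90.2% and 35.9% in shCM1, against 84.6% and 41.6% in shCTL. The level on slide 2 was 39.8% of that on slide 1 in shCM1 and 49.2% in shCTL, so the slides differed far more than the groups. The differences within the slides were 0.09 and -0.21, with a mean of -0.06 (SE 0.54). The C chain was dim. Its brighter probe, A_44_P500708, had 9.39% and 6.15% in shCM1 and 8.16% and 4.39% in shCTL. The collagen-repeat probe of C1qc, A_44_P412290, had 5.43% and 4.13% in shCM1 and 4.61% and 2.91% in shCTL. The mean differences of these probes were 0.34 (SE 0.39) and 0.37 (SE 0.34), higher within both slides, with overlapping groups. With the slide as a block their adjusted p from limma was 0.275 and 0.335. After quantile normalization these C1qc differences were 0.16 and 0.17, and after cyclic loess 0.15 and 0.13. Of the 5 C1q probes, 4 were thus higher within both slides, as were 44.2% of all probes. These 4 are the probes of C1qa and C1qc, and the exception was C1qb. None of the 5 passed.

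Microglial markers are given beside these genes. All 15 measured markers were higher within both slides in shCM1, as were 44.2% of all probes. Their median difference was 0.67 (0.41 after quantile normalization, 0.28 with normexp). With the slide as a block 6 rose and 0 fell, where the fit called 3.2% of all probes higher and 2.69% lower. Aif1, a calcium-binding protein of microglia, had 9.73% and 4.88% in shCM1, against 3.33% and 2.34% in shCTL (difference 1.30, SE 0.42, and 0.42 with normexp). Tyrobp, the adaptor of several myeloid receptors, had 67.7% and 54.6% in shCM1 and 33.4% and 29.1% in shCTL (difference 0.97, SE 0.20), and its other probe had 0.41. Fcer1g, an Fc receptor chain, had a difference of 1.01 (SE 0.27), and Ctss, a lysosomal protease, had 0.89 (SE 0.31), and 0.48 with normexp. A dimmer Ctss probe had 2.30. The mean log2 level of the markers, relative to the array's 75th percentile, was -2.41 and -2.67 in shCM1 and -3.22 and -3.15 in shCTL. No marker in this list was below background, while the probe of the member gene Itgam was. The part of microglia in the C1q and Itgb2 values was not tested. In these bulk samples fewer or more cells of a type and less or more RNA per cell cannot be told apart.

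C2 is the protease precursor that the C1 proteases cut beside C4. It had 37.1% and 35.2% in shCM1, against 33.2% and 28.9% in shCTL. The shCM1 arrays lay above the shCTL arrays, by 0.16 and 0.28 within the slides. The mean difference of 0.22 (SE 0.18) did not pass the slide-blocked fit, with an adjusted limma p of 0.288.

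C3, the component on which all activation routes meet, fell in shCM1 in the slide-blocked fit. The C3 probe had 63.2% and 68.6% in shCM1, against 98.6% and 179.9% in shCTL. Both shCM1 arrays were below both shCTL arrays, and the shCM1 arrays were close together while the shCTL arrays were far apart. Within slide 1 C3 was at 64.1% of control and within slide 2 at 38.15% of control. The differences within the slides were -0.64 and -1.39. The mean difference was -1.02 (SE 0.31 without the block and 0.14 with it), or 49.4% of control, and 0.191% of probes had a lower one. The SE with the block rests mostly on probes of like brightness, not on the 2 slides of C3, and was 0.22 without an intensity trend. With the block the adjusted limma p was 4.74e-04, and without it 1. Under the other scalings with the block the difference lay between -1.002 and -1.04, and the highest adjusted p was 0.00969, after cyclic loess. These blocked fits called 3.69% of all probes after quantile normalization, 2.65% after cyclic loess, 3.87% with normexp and 3.02% in the authors' table. The difference was -0.58 without shCTL replicate 2, and the blocked adjusted p was 0.242 without an intensity trend in the variance prior. C3 and Serping1 probe A_42_P510386 were also the only member probes at least 1.5-fold lower within both slides, as were 0.6% of all probes.

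The sequence before the C3 gene is shown because C3 had the largest difference among the members. RefSeq's GRCr8 promoter table, which held 5 of the 9 genes, gives these 250 bases before the start on the minus strand, chr9:2201340-2201589, 5′ to 3′ in the direction of transcription, with capitals at the match to the C/EBP motif TTGNNNAA.
C3 upstream: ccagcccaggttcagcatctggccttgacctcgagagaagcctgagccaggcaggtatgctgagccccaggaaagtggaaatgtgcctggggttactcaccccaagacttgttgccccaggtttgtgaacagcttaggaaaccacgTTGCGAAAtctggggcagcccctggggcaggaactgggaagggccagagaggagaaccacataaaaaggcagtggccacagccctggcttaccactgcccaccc
The match begins at position -104 from the start. Such a match occurs in 37.2% of 33469 promoters, each running from 250 bases before to 50 after the start and searched on both strands. The letters of NF-kB (GGG, any 3 bases, then TTCC, in 5.37% of promoters), PU.1 (GAGGAA, 27.6%), an ISRE (GAAA, any 2 bases, then GAAA, 3.92%) and STAT (TTCNNNGAA, 8.87%) were not in the C3 window. C1qb had NF-kB, C/EBP and PU.1 matches, with the first PU.1 match overlapping that of NF-kB, and C3ar1 had an NF-kB match. C1qa had a STAT match. Itgam had C/EBP, PU.1 and STAT matches, with 1 PU.1 match overlapping a C/EBP match. These matches are descriptions of the letters and were set against no measurement of binding.

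C3ar1 encodes the receptor of C3a, the small fragment released when C3 is cut. It was dim, with 3.26% and 1.57% in shCM1, against 3.67% and 1.28% in shCTL. Slide 1 was the higher one in both groups and the groups overlapped. The differences within the slides had opposite signs, -0.17 and 0.29, with a mean of 0.06 (SE 0.65) that became -0.20 after quantile normalization. No direction can be given for C3ar1.

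Complement receptor 3 binds the C3 fragment iC3b and consists of an alpha chain, Itgam, and a beta chain, Itgb2, which is shared by all beta-2 integrins. The Itgam probe was not well above background on any array, at 0.319% and 0.430% in shCM1 and 0.458% and 0.216% in shCTL, so it has only a bound and no fold is given. Itgb2 had 3.73% and 3.31% in shCM1, against 1.84% and 2.63% in shCTL. Both shCM1 arrays were above both shCTL arrays. The difference was 0.67 (SE 0.33), with 1.02 and 0.33 within the slides, and the slide-blocked adjusted p from limma was 0.160. The difference was 0.25 with normexp and 0.43 after quantile normalization. Of 6 measured alpha chains, ligands and linkers of beta-2 integrins, Itgad, another alpha chain, rose (0.76, SE 0.26, blocked adjusted p = 0.0405) and Icam1, an adhesion ligand, fell (-0.48, SE 0.19, blocked adjusted p = 0.0208). Itgad lost its call after quantile normalization (adjusted p = 0.159) and Icam1 after cyclic loess (adjusted p = 0.0505), both with the block.

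Serping1 gave different values at its 2 probes. The 3′ probe, A_42_P510386, had 343.9% and 679.7% in shCM1, against 625% and 1164% in shCTL. Slide 2 was higher in both groups, at 198% of slide 1 in shCM1 and 186% in shCTL, so the groups overlapped, but within each slide shCM1 was lower. It was at 55.0% of control within slide 1 and 58.4% within slide 2, with differences of -0.86 and -0.78. The mean difference was -0.82 (SE 0.43 without the block and 0.087 with it). With the slide as a block this probe of Serping1 fell, with an adjusted limma p of 4.54e-05 (1 without a block). The other scalings with the block gave -0.74 to -0.76, with a highest adjusted p of 0.00206. Without an intensity trend, however, the blocked SE was 0.11 and the blocked adjusted p was 0.242. The unblocked value was -0.33 without shCM1 replicate 1, -1.31 without shCM1 replicate 2, -1.27 without shCTL replicate 1 and -0.37 without shCTL replicate 2.

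The probe of Serping1 nearer the 5′ end did not show the fall. A_44_P422630 had 66.6% and 61.8% in shCM1, against 67.0% and 53.9% in shCTL. The groups overlapped, and the differences within the slides were -0.01 and 0.20. Its mean difference was 0.09 (SE 0.19), with a blocked adjusted limma p of 0.658. Nor did this probe show the higher level on slide 2 that A_42_P510386 showed in both groups. The difference between the probes was not tested, and the lower value of Serping1 therefore rests on A_42_P510386.

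**Figure D2:**
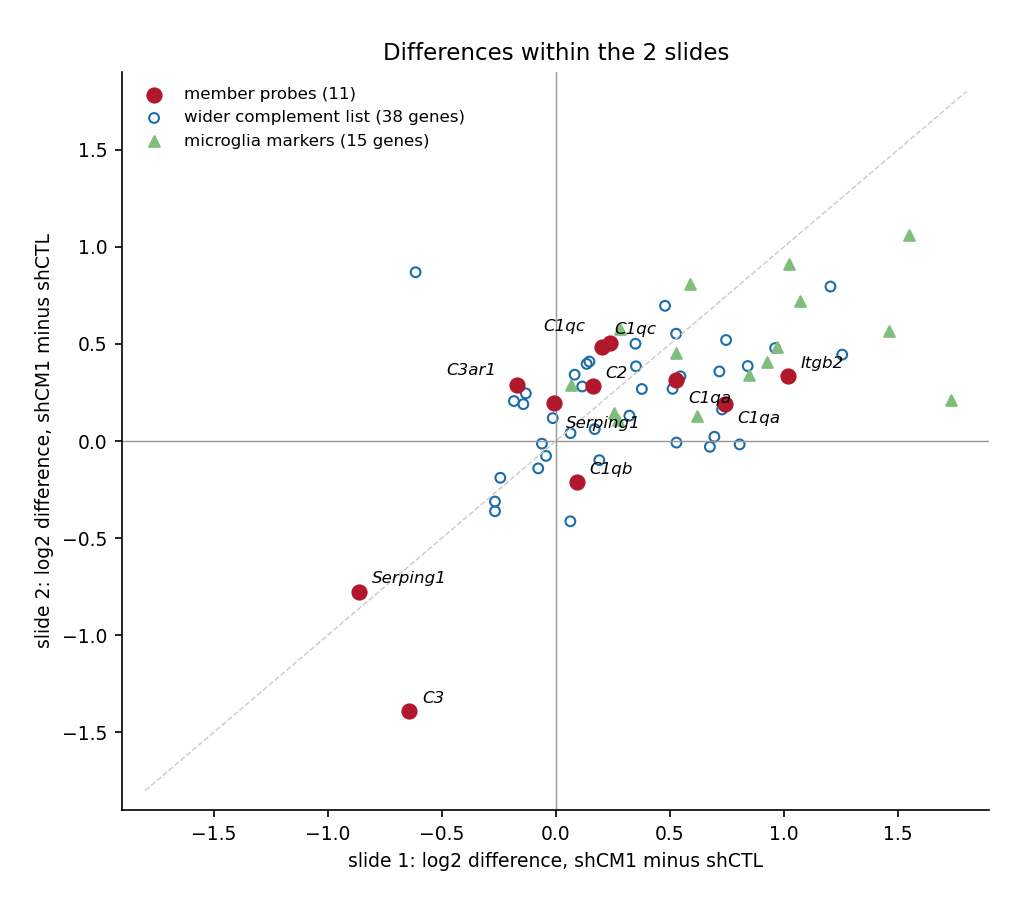
Log2 difference, shCM1 minus shCTL, within slide 1 (horizontal) and slide 2 (vertical) for the 11 member probes measured (filled circles), 38 other complement genes (open circles) and 15 microglial markers (triangles), with the dashed line marking equal values. C3 and 1 Serping1 probe stand alone far down on the left, with -0.64 and -1.39 for C3 and -0.86 and -0.78 for Serping1.

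**Figure D3:**
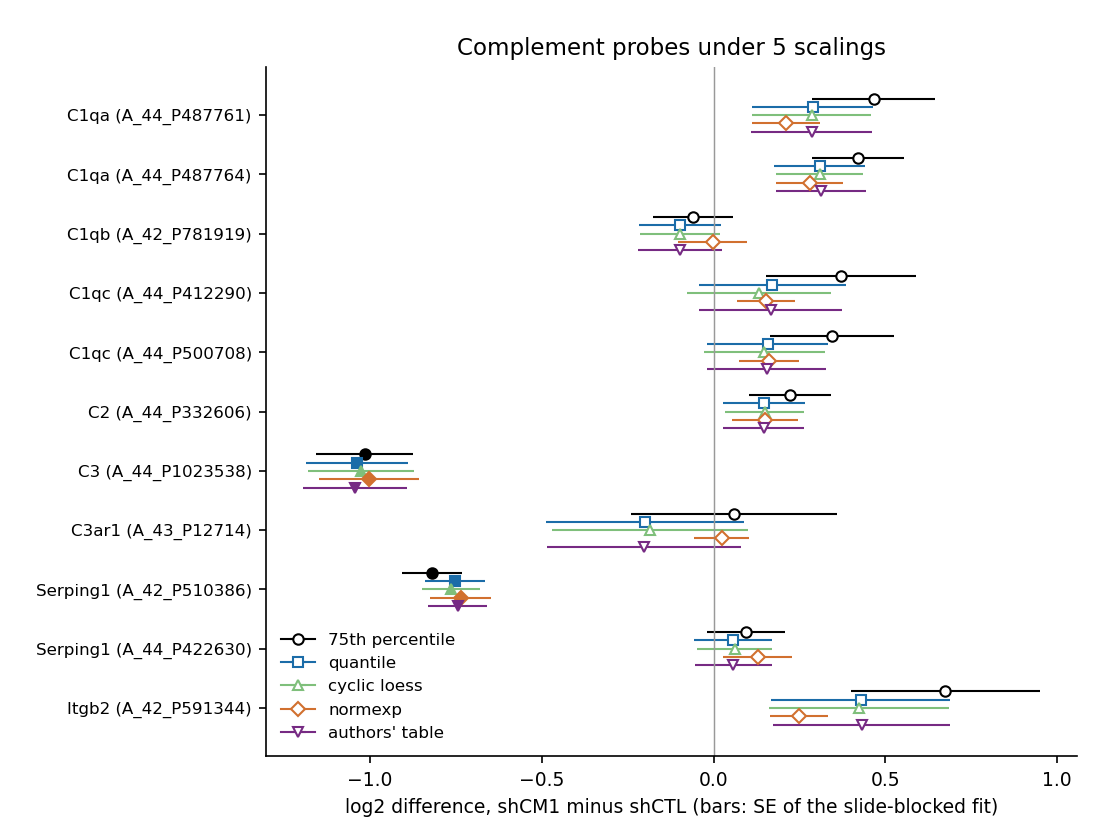
Log2 difference of each member probe, shCM1 minus shCTL, in the slide-blocked limma fit under 5 scalings, with bars for the SE, and filled symbols where the adjusted p was under 0.05. C3 and Serping1 probe A_42_P510386 are filled throughout, while the difference of Itgb2 spans 0.25 to 0.67 and that of C3ar1 changes sign.

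Of 48 other complement genes listed, 42 had a probe of that name and 38 were measured. With the block 3 rose and 1 fell, where the fit called 3.2% of all probes higher and 2.69% lower. Within both slides 22 were higher and 6 lower, against 44.2% and 22.6% of all probes, and their median difference was 0.26, or 0.10 after quantile normalization. None of 7 initiating genes of the classical and lectin routes passed. C1s, a C1 protease that C1 inhibitor blocks, had -0.31 (SE 0.20, blocked adjusted p = 0.108) at the brighter of 2 probes. Masp2, a lectin-route protease, had 0.42 (SE 0.25) at the brightest of 4 probes. None of the 3 alternative-pathway genes passed either. Cfd, the protease factor D, had 0.63 (SE 0.32), and Cfp, properdin, had 0.05 (SE 0.34). Of 5 terminal-pathway genes C9, which forms the pore of the membrane attack complex, rose. C9 had 18.9% and 16.6% in shCM1, against 10.5% and 12.7% in shCTL (0.61, SE 0.20, blocked adjusted p = 0.0259). With the block it lost its call after quantile normalization (adjusted p = 0.100), cyclic loess and normexp, and in the authors' table.

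Of 9 soluble regulators 1 rose and 1 fell with the block, where the fit called 3.2% of all probes higher and 2.69% lower. Within both slides 7 were higher and 1 lower, against 44.2% and 22.6% of all probes. Clu, the chaperone clusterin, which also inhibits the terminal complex, had 3093% and 2884% in shCM1, against 2383% and 2395% in shCTL. Its arrays did not overlap, the difference was 0.32 (SE 0.13) and the blocked adjusted limma p was 0.0248. C1qbp, a mitochondrial protein that can bind C1q, had 4671% and 4664% in shCM1, against 5621% and 5789% in shCTL. Both probes of C1qbp fell (-0.29 for the brighter, SE 0.12, blocked adjusted p = 0.0314). With the block the brighter probe lost its call under every other scaling. Its adjusted p was 0.0905 after quantile normalization, 0.164 after cyclic loess, 0.0599 with normexp and 0.104 in the authors' table. None of 10 membrane regulators passed, and those with the smallest p were Sez6l2 (0.20, SE 0.22) and Sez6l (0.28, SE 0.17), neuronal proteins with complement-control repeats. Of 4 other receptors Cd93, a membrane protein first described as a C1q receptor, rose. Cd93 had 52.0% and 71.6% in shCM1, against 36.1% and 48.8% in shCTL, with 0.53 and 0.55 within the slides (blocked adjusted p = 0.0099). Clu and Cd93 passed under all 5 scalings with the block. Without an intensity trend in the variance prior, no gene named from the pathway and marker lists passed with the block, and the lowest adjusted p among them was 0.242.

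C3 and Serping1 are also transcribed by astrocytes that react to injury or cytokines, so such genes were set beside them. Among 17 reactive-astrocyte genes, with a median of 0.10, S1pr3 and Steap4 rose and Lcn2 fell once the slide was a block. Lcn2, a lipocalin that binds bacterial iron carriers, had 352% and 280.4% in shCM1, against 932% and 701% in shCTL (-1.36, SE 0.21, blocked adjusted p = 5.36e-07). S1pr3, a sphingosine phosphate receptor, rose (0.75, SE 0.18, blocked adjusted p = 0.00303). Steap4, a metalloreductase, rose at its brighter probe (0.47, SE 0.22, blocked adjusted p = 0.0434), with -0.23 at its other probe. With the block the brighter probe had no call after quantile normalization (adjusted p = 0.142), cyclic loess or normexp, or in the authors' table. None of 9 general astrocyte markers passed. Their median was -0.03, and their summed level was 12914% and 12771% in shCM1 and 11790.4% and 12806% in shCTL. Most of this sum was Slc1a3, with 9431% and 8010% in shCM1 and 8441% and 7505% in shCTL. Gfap had 92.1% and 201% in shCM1 and 89.8% and 216% in shCTL.

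Other cell types were checked in the same way. Among 7 fibroblast and pericyte markers Dcn, Col1a2 and Pdgfrb rose and none fell, with a median of 0.54 and a summed level of 206% and 256% in shCM1 and 174% and 196% in shCTL. The median was 0.30 after quantile normalization and 0.18 with normexp. With the block Pdgfrb lost its call after quantile normalization (adjusted p = 0.0689) and Col1a2 after cyclic loess (adjusted p = 0.0651). Of 7 markers of blood myeloid cells Plac8 rose (1.76, SE 0.38, and 0.44 with normexp) and none fell. The median of the list was 0.15, or -0.11 after quantile normalization, and 5 of the 7 had opposite signs in the slides. Plac8 was dim, with 2.85% and 4.14% in shCM1 and 1.07% and 0.958% in shCTL. Plac8 was well above background on 3 of the 4 arrays. The summed level of these markers was 23.7% and 20.8% in shCM1 and 15.9% and 20.4% in shCTL. None of 6 endothelial markers passed, with a summed level of 71.9% and 68.1% in shCM1 and 53.4% and 67.5% in shCTL. Of 10 neuronal markers Gad1 and Gad2, the enzymes of GABA synthesis, rose and Tubb3, a neuronal tubulin, fell, with a median of -0.02. Tubb3 lost its call after cyclic loess with the block (adjusted p = 0.0773) and in the authors' table with the block. Of 8 oligodendrocyte-lineage markers 2 rose, among them Mbp, and Cspg4 fell, with a median of 0.09. With the block neither Mbp nor Cspg4 passed after quantile normalization (adjusted p = 0.0672 and adjusted p = 0.0852), cyclic loess or normexp, or in the authors' table. The part of these cell types in the C3 and Serping1 values was not tested.

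**Figure D4:**
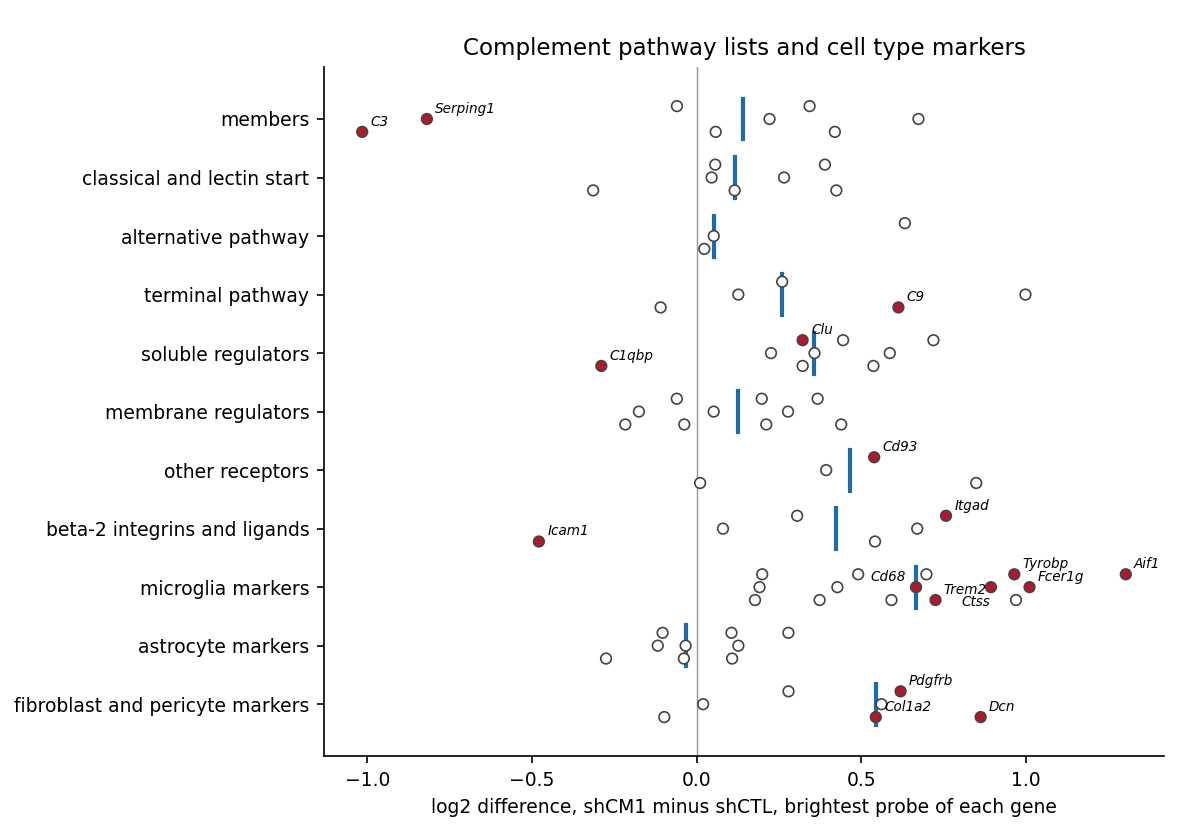
Log2 difference, shCM1 minus shCTL, of the brightest probe of each gene, by complement group and by cell type markers, with filled and named points past the slide-blocked fit and a vertical bar at each list's median. C3 and Serping1 lie below every gene shown of the other complement groups, Serping1 by the brighter of its 2 probes, and all 15 microglial markers lie above 0.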

How the data were processed

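Per the file headers, Agilent's Feature Extraction software (10.7.3.1) made the deposited spot intensity values, in 1 colour (Cy3), with background already corrected and no scaling between arrays. Each array had 45018 spots, of which 43379 were gene spots, and 86 to 98 outlier spots per array were left out. The authors' deposited value table, also linear intensity, correlated with its arrays at 0.9998 or above and was an alternative, with its scaling step not given in the sources used here. Here repeated spots were averaged per probe, the deposited signal was put on the log2 scale, each array's 75th percentile was subtracted, and probes well above background on at least 2 arrays were kept (36700). The brightest probe of a gene stood for it. Some named list genes, among them C1s, Masp2, Sez6l2, Gad1, Mbp, Col1a2 and Slc1a3, had other probes whose values are not given.

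The comparison used limma 3.58.1 under R 4.3.3, with lmFit, then eBayes with a trend over intensity. Tests were two-sided, with Benjamini-Hochberg adjustment over all kept probes and a threshold of 0.05. The script was tested on simulated data, and the fit was repeated with the slide as a block. Same-numbered arrays share a slide and a scan per the file headers, and their deviations from the group means correlated at 0.713. The leading principal component, with 65.1% of the variance, separated the slides. The blocked fit borrows 14.8 prior degrees of freedom, so its p-values rest mostly on probes of like brightness. The series names independent experiments without tying them to slides, and the small number of arrays limits the precision.

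Member genes and lists were chosen with earlier results of these data known. All member probes are described. Of each other list the text gives counts past the blocked fit, and by name up to 4 that passed or else the 2 with the smallest p. Stmn2, Slc17a7, Slc1a3 and Gfap are named for their levels alone. Some listed genes are not reported here by name. No genes were ranked by likeness to the members, because 4 arrays in 2 pairs cannot rank it. Of the 41012 probes, 18971 took names by RefSeq accession, 2995 by symbol and 203 by an older symbol (assembly GRCr8), and 18843 kept the file's name. Promoters are from RefSeq's GRCr8 table. Alternatives were quantile normalization, cyclic loess, normexp (offset 50), the authors' table, other filters, a percentile over detected probes, no intensity trend and each array left out. A planned comparison of the C1q proteins was not made.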

Additional observations from a re-analysis of the deposited data

How the results depend on the processing

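With 2 arrays per group, the count of complement genes past the threshold was 0 without a block under every scaling, filter and left-out array. It was 2 with the slide as a replicate block, and 2 with that block and 1 probe per gene, quantile normalization, cyclic loess, normexp or the authors' table, where the genes were C3 and Serping1. It was 0 with the block and no intensity trend. Of the values of the 8 measured genes over all alternatives, 137 kept direction and side of the threshold, 12 (C3 and Serping1 with the block) moved past it and 11 changed sign. C3ar1 changed sign after quantile normalization (-0.20), cyclic loess (-0.18) and in the authors' table (-0.20), with the same values under the block, and the cause was not tested. Leaving out each array in turn gave -0.70 to 0.82 for C3ar1, -0.72 to 0.61 for C1qb, -0.10 to 0.79 for C1qc, 0.18 to 0.66 for C1qa, 0.12 to 0.32 for C2, 0.42 to 0.93 for Itgb2, -1.45 to -0.58 for C3 and -1.31 to -0.33 for Serping1. Probes higher within both slides numbered 4 after cyclic loess and 8 with normexp, against 6, and those lower stayed 2. Itgam, C3ar1, C1qc and Itgb2 are limited by signal near background.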
